A study of Canis lupus familiaris with 42 samples.

Results

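The 9 genes listed for this account were inhibitors of serine proteases, activators and a receptor of the plasminogen system, and the starter and brakes of blood clotting. The platform annotation named probe sets for 8 of the 9, namely SERPINA1, SERPINE2, TFPI, TFPI2, F3, THBD, PLAU and PLAT, out of 15115 genes named on the array. PLAUR, the urokinase receptor, was not analysed here. For each gene the probe set annotated with that symbol alone and with the highest mean over all arrays was used. The 8 genes had 15 such probe sets, and the others served as a check. The list was drawn up with the change between samples already known, since SERPINA1 and TFPI2 had stood among the largest rises. The changes of the 8 genes are therefore given as a description. How many of them a fit over all probe sets called is printed beside its background, and at the end for other settings. Nothing is read from these counts.

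The samples were spontaneous sarcomas of dogs, tumours of connective tissue that arose in pets rather than in an engineered model, each sampled around its first session of hyperthermia (heating of the tumour), given alongside radiotherapy. The 42 arrays came from 21 tumours of the 22 that the design names, with 1 array before treatment (labelled with treatment none) and 1 after it (labelled with hyperthermia) for each tumour, here numbered 1 to 21. The labels give no breed, age, tumour subtype or time of the second sample, and no tumour was sampled again without treatment. The levels come from RMA in log2 units; RMA puts arrays on 1 scale and condenses each probe set to 1 value, so a change of 1 on this scale is 2-fold. Levels are compared within a probe set and not between genes, apart from marking which lie below the median of all probe set means. The precision is limited by the number of arrays, and the spread behind each p-value is that among the sampled tumours, which the labels do not state to be from different dogs.

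Serine proteases cut proteins by a serine in their active centre and drive clotting, clot removal and matrix breakdown. Serpins trap such enzymes by a one-time change of shape, and Kunitz-type inhibitors such as TFPI plug the active site. Tissue factor, encoded by F3, starts clotting when blood meets it. TFPI blocks that step, and thrombomodulin, encoded by THBD, turns thrombin towards activation of the anticoagulant protein C. Urokinase (PLAU) and tissue plasminogen activator (PLAT) turn plasminogen into plasmin, which dissolves fibrin and helps cells move through tissue. In sarcomas and other tumours these genes are made by tumour cells, fibroblasts, vessels and infiltrating white blood cells alike.

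The tissue label was set beside marker levels as a description. The 8 mesenchymal markers, such as vimentin VIM and the collagen chain COL1A1, had a mean level of 12.30 before and 12.17 after treatment, while 9 of 10 measured epithelial markers lay below 5.28, the median of all probe set means. Tumours 13 and 15 stood apart before treatment. The mesenchymal mean was lowest in tumour 15 (11.675), next to 11.683 in tumour 19. After treatment the epithelial mean of tumour 15 was still 7.72. In tumour 15 the epithelial markers had a mean level of 7.58 against 5.16 in tumour 13 and 4.86 in the next highest tumour, and the 11 measured neutrophil markers had a mean of 7.31 in tumour 15 and 6.07 in tumour 13 against a highest value of 5.36 among the other tumours. The arrays also fell into 2 groups by the level of their poly-A control transcripts, which a laboratory may add to the RNA ahead of labelling. These are called the spiked batch (9 tumours) and the unspiked batch (12 tumours), although no label names a batch. No tumour had arrays in both. The 3′ minus 5′ signal of the control probe sets for actin and GAPDH, which reflects RNA quality and is here called the end contrast, was higher after treatment in 8 of 9 spiked tumours (mean change 0.38) and in 5 of 12 unspiked tumours (mean change -0.05). In bulk tissue a change in the number of cells of a type and a change in RNA per cell cannot be told apart.

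SERPINA1, which encodes alpha-1 antitrypsin, the main inhibitor of neutrophil elastase, was higher after treatment in 19 of 21 tumours. Before treatment its level ran from 5.60 in tumour 9 through a median of 6.67 to 11.74 in tumour 15, and after treatment from 5.88 through a median of 8.65 to 11.04. The ranges overlapped widely. Within tumours the mean change was 1.54 ± 0.26 on the log2 scale (SE, n = 21; SD 1.29), or 2.90-fold, with a 95% interval from 1.01 to 2.06. It was at least 2-fold in 13 tumours and largest in tumour 3, from 6.81 to 10.47. The level was lower after treatment in tumours 6 and 15 alone, by changes of -0.66 and -0.70. The other probe set of the gene gave a change of 1.10 ± 0.21 (SE), also higher in 19 tumours. Probe sets of both kinds can bind related transcripts, since their names end in _s_at and _x_at. The change was 1.71 ± 1.16 (SD) in the spiked batch, higher in 9 of 9 tumours, and 1.40 ± 1.41 (SD) in the unspiked batch, higher in 10 of 12 tumours. Without tumours 13 and 15 it was 1.71.

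The genes that lie next to SERPINA1 in the dog annotation are mostly serpins of the same subfamily. Among its 4 neighbours on either side, SERPINA6, SERPINA11, SERPINA14, SERPINA9, SERPINA12 and PPP4R4 were measured. Their mean changes ran from -0.01 (SERPINA11) to 0.13 (SERPINA12), and limma called none of them at an adjusted p under 0.05. Of the 6, SERPINA12 had the smallest adjusted p (0.188). SERPINA6, SERPINA14, SERPINA9, SERPINA12 and PPP4R4 had mean levels from 3.83 to 4.48 before treatment, below the median of all probe set means (5.28). At such levels a small change says little. All 6 neighbours were looked at after the values of SERPINA1 were seen.

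**Figure D1:**
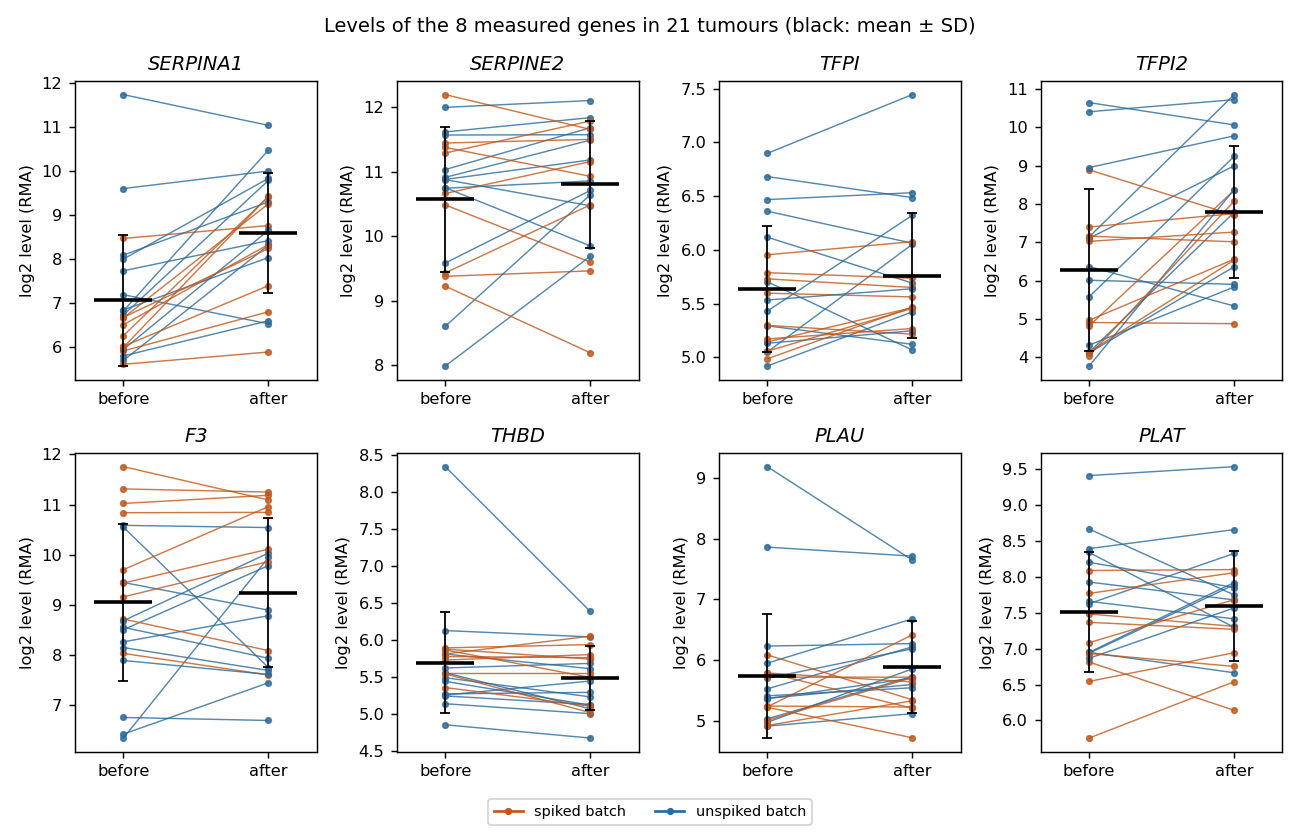
Log2 level of each of the 8 measured genes before and after treatment in 21 tumours. Each line joins the 2 arrays of a tumour, colours mark the spiked and unspiked batches, and black bars give the mean with its SD. SERPINA1 went up in 19 tumours and TFPI2 in 15, F3 lines cross in both directions, and the steep falls of THBD and PLAU are tumours 2 and 15.

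TFPI2, a Kunitz-type inhibitor that is secreted into the matrix and acts on plasmin and trypsin, had the widest spread of the 8 genes. Its level ran from 3.77 in tumour 16 through a median of 6.01 to 10.64 in tumour 15 before treatment, and from 4.88 in tumour 9 through 7.75 to 10.85 in tumour 1 after it. The mean change was 1.50 ± 0.36 (SE, n = 21; SD 1.82), or 2.83-fold, with a 95% interval from 0.76 to 2.24, and 15 tumours were higher. The lowest starting level went with the largest change, since tumour 16 moved from 3.77 to 8.37, a 24.3-fold difference. Tumour 21 moved from 4.04 to 8.07, whereas tumour 9, which began at 4.90, stayed at 4.88. The largest falls were -1.18 in tumour 11 and -1.03 in tumour 6. The other probe set gave a change of 1.02 ± 0.26 (SE), also higher in 15 tumours.

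The change of TFPI2 was 1.20 ± 1.79 (SD) in the spiked batch, higher in 6 of 9 tumours, and 1.73 ± 1.89 (SD) in the unspiked batch, higher in 9 of 12 tumours. Without the 5 tumours (11, 13, 16, 20 and 21) with a shift in the end contrast above 0.5 it was 1.44. TFPI2 and SERPINA1 were both higher in 15 tumours and both at least 2-fold higher in 10, and tumours 6 and 15 were lower for both. Tumours 12 and 20 departed from this, with changes of 3.16 and 2.60 for SERPINA1 but 0.35 and 0.24 for TFPI2. Of the measured neighbours of TFPI2, chosen like those of SERPINA1, GNG11, a G protein subunit, rose by 0.35 ± 0.10 (SE, limma adjusted p = 0.0477). SAMD9L, HEPACAM2, VPS50, CALCR, GNGT1 and BET1 had changes from -0.07 to 0.17 and were not called. Among them HEPACAM2, CALCR and GNGT1 had mean levels of 4.24, 3.69 and 2.92 before treatment, below the median of all probe set means.

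TFPI and SERPINE2, the other 2 inhibitors among the 8 genes, had smaller mean changes. TFPI, the plasma and vessel wall inhibitor of tissue factor, had levels from 4.92 through a median of 5.53 to 6.90 before treatment and from 5.07 through 5.64 to 7.45 after it. Its mean change was 0.13 ± 0.08 (SE), with a 95% interval from -0.05 to 0.30 and 12 of 21 tumours higher. The extremes were -0.63 in tumour 7 and 1.003 in tumour 3. Without tumour 3 the mean was 0.08. Its other probe set lay at 2.72 in the mean of both groups, near the bottom of the measured range, and says little about TFPI. SERPINE2, or protease nexin-1, a cell-bound inhibitor of thrombin and plasminogen activators, had levels from 7.98 through 10.88 to 12.20 before and from 8.19 through 10.93 to 12.11 after treatment. Its mean change was 0.23 ± 0.16 (SE), with a 95% interval from -0.10 to 0.56 and 15 tumours higher. The change was lowest in tumour 19 (-1.03) and highest in tumour 16 (2.04), and all 3 of its probe sets had mean changes between 0.19 and 0.26. Without tumour 16 the mean change of SERPINE2 was 0.14. It was below 0 in the spiked batch (-0.08) and above 0 in the unspiked batch (0.46), a difference of -0.54 that did not pass in a limma interaction test (adjusted p = 0.754).

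F3 moved strongly in single tumours but in both directions. Its level ran from 6.34 in tumour 1 through a median of 8.72 to 11.76 in tumour 12 before treatment, and from 6.69 through 9.78 to 11.25 after it. The mean change was 0.19 ± 0.24 (SE, n = 21; SD 1.21), with a 95% interval from -0.31 to 0.69, and 10 tumours were higher against 11 lower. In tumour 1 the level went from 6.34 to 9.94, a 12.2-fold difference, and in tumour 15 from 10.55 to 7.75, which is 6.97-fold lower. In all, 5 tumours were at least 2-fold higher and 1 was at least 2-fold lower. The mean rested on those ends, being 0.02 without tumour 1 and 0.34 without tumour 15. The SD of its change was larger than that of 99.6% of named genes, whose median SD was 0.28. The same share was 99.7% for SERPINA1 and 99.9% for TFPI2. Both were listed for their change, so nothing is read from their shares. All 5 tumours in which F3 was at least 2-fold higher by the probe set used here also had SERPINA1 and TFPI2 at least 2-fold higher. The other probe set of F3 gave a change of 0.05 ± 0.20 (SE), with 9 tumours higher and 12 lower. By that probe set 3 tumours were at least 2-fold higher and 1 was at least 2-fold lower.

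THBD had levels from 4.86 through a median of 5.56 to 8.34 before treatment and from 4.68 through 5.50 to 6.39 after it. Its mean change was -0.21 ± 0.09 (SE), with a 95% interval from -0.40 to -0.02, and 14 of 21 tumours were lower. It was not called by limma over all probe sets. By this probe set tumour 2 stood alone, with a level that went from 8.34 to 6.39, and the mean change without it was -0.12. In the other tumours the change lay between -0.52 and 0.24. The other probe set of THBD gave -0.20 ± 0.08 (SE), from a mean level of 4.71 before treatment, below the median of all probe set means. Its highest level before treatment, also in tumour 2, was 5.86. Its largest fall was -0.94 and lay in tumour 1.

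Both plasminogen activators had small mean changes with intervals that included 0. PLAU had levels from 4.91 through a median of 5.41 to 9.19 before treatment and from 4.72 through 5.71 to 7.71 after it. Its mean change was 0.14 ± 0.13 (SE), with a 95% interval from -0.12 to 0.41 and 13 tumours higher. Tumour 15 had the highest level before treatment and the largest fall, from 9.19 to 7.65, and without it the mean change was 0.23. PLAT had levels from 5.76 through 7.48 to 9.41 before and from 6.14 through 7.68 to 9.54 after treatment. Its mean change was 0.08 ± 0.12 (SE), with a 95% interval from -0.17 to 0.32 and 11 tumours higher. Each of the 2 activators was measured by 1 probe set. The mean change of PLAT was 0.03 without tumour 3 and 0.13 without tumour 15. PLAU and PLAT moved in opposite directions in 12 of the 21 tumours.

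**Figure D2:**
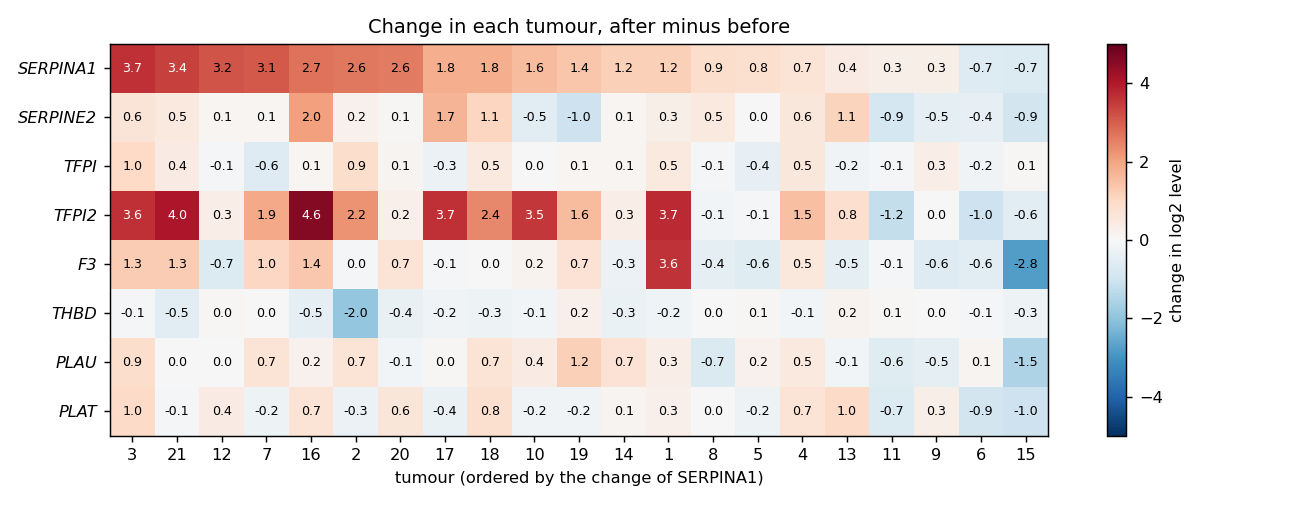
Change in log2 level (after minus before) of the 8 genes in each of 21 tumours, which are ordered by the change of SERPINA1. Red is higher and blue lower after treatment. TFPI2 was at least 2-fold higher in 10 of the 13 tumours in which SERPINA1 was, tumour 15 was lower for 7 of 8 genes, and tumours 1 and 15 hold the extremes of F3.

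In the limma fit over all probe sets, with the tumour as a block, 2 of the 8 genes were called higher at a Benjamini-Hochberg adjusted p under 0.05 (SERPINA1 and TFPI2) and none lower; at an unadjusted p under 0.05, THBD was lower as well. Over all 15115 genes 7.15% were called, 4.02% higher and 3.13% lower, and over all probe sets 5.96%, 2.97% higher and 2.99% lower. Since SERPINA1 and TFPI2 were listed for their change, nothing is read from that comparison. The median change was 0.17 for the 8 genes and 0.01 over all genes. Nothing is read from these medians either, because the 8 include the 2 genes listed for their change. The tumours differed in how many of the 8 genes were higher, from 1 of 8 in tumours 6 and 15 to 7 of 8 in tumours 1, 3, 4, 16 and 18. For none of the 8 genes did the change differ between the batches after adjustment in the interaction test, which called 1 of 42924 probe sets (0.00233%), beside 7.1% at an unadjusted p under 0.05. The unadjusted p for the 8 genes was 0.0975 or more.

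Markers of white blood cells also changed, in both directions. Over all genes 4.02% were called higher and 3.13% lower, the background for the counts of called markers that follow. The 11 measured neutrophil markers had mean levels over a tumour from 4.65 to 7.31 before and from 4.72 to 7.04 after treatment. Their mean change was 0.33 ± 0.44 (SD, n = 21), above 0 in 16 tumours, and 3 of the 11 rose and 0 fell, namely TREM1, S100A9 and LCN2. The neutrophil change was largest in tumours 3 and 7 (1.03 in each), where SERPINA1 changed by 3.66 and 3.06, and it was -0.23 and -0.28 in tumours 6 and 15, the 2 tumours with lower SERPINA1. The values parted in tumours 13, 8 and 9, where the neutrophil change was -0.53, -0.16 and -0.16 while SERPINA1 changed by 0.40, 0.89 and 0.28. Among the 11 neutrophil markers, 6 lay below the median of all probe set means. The granule enzymes MPO and ELANE were among these, with mean levels of 4.50 and 4.84 before treatment and changes of -0.01 and -0.06. The 12 macrophage markers had a mean change of 0.11 ± 0.49 (SD), with levels from 6.73 to 9.18 before and from 7.04 to 9.27 after treatment. Of these, 3 rose, namely FCGR1A, MSR1 and ITGAM, and CSF1R fell. The 8 measured T cell markers went the other way, with levels from 4.74 to 6.66 before and from 4.60 to 5.73 after treatment, a mean change of -0.23 ± 0.36 (SD) and 6 of 21 tumours higher, and 4 of the 8 fell (CD3D, CD3E, CD3G and LCK). Below the median of all probe set means lay 4 of the 8 T cell markers and 0 of the 12 macrophage markers. The part of neutrophils, macrophages and T cells in the changes of SERPINA1 and TFPI2 was not tested. The liver is the main source of SERPINA1 in the body. The 8 measured liver markers stayed at a mean level of 5.07 in both groups. Of these, 4 lay below the median of all probe set means, among them albumin ALB (4.39 before and 4.44 after treatment). A liver source of SERPINA1 was not tested. The 13 endothelial markers, which matter for TFPI and THBD, had levels from 5.98 to 8.12 before and from 6.03 to 7.74 after treatment, a mean change of -0.02 ± 0.27 (SD), and none was called.

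The wider families were examined next. The list held 134 other genes, of which 110 were measured. Limma called 14 of the 110 (12.7%), 8 higher and 6 lower, beside 7.15% of all genes, and their median change was -0.01. At an unadjusted p under 0.05 there were 14 higher and 13 lower of the 110, and 1829 higher and 1456 lower of all 15115 genes, the background for such counts in every list. The number called at the adjusted p hung on single tumours. It was 5 higher without tumour 2, 10, 12, 16, 18 or 21, and 2 lower without tumour 2 or 10 and 3 lower without tumour 1, 12, 14, 16, 17, 20 or 21. Without the 5 tumours of shifted end contrast it was 2 higher (CSTB and PROCR) and 0 lower. Of the 9 called genes that the naming rule picked, PROCR, CSTB and RECK were also called in the spiked batch alone, whereas SERPINB6, SERPINB8, SERPINB13, PAPLN, ENO1 and LMAN1 were not, and none of the 9 was called in the unspiked batch alone.

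Of 24 other measured serpins, 2 rose and 1 fell, beside 6 higher and 2 lower at an unadjusted p under 0.05. SERPINB6, an intracellular inhibitor of cathepsin G, rose by 0.46 ± 0.13 (SE; limma adjusted p = 0.0372; 15 of 21 tumours), and 3 of its 4 probe sets were called. SERPINB8 rose by 0.28 ± 0.08 (adjusted p = 0.0455; 15 tumours). SERPINB13, a serpin of squamous epithelium, had a change of -0.32 ± 0.09 (limma adjusted p = 0.0419, 5 tumours higher). This probe set had mean levels of 5.21 before and 4.89 after treatment, below the median of all probe set means. The other probe set of SERPINB13 changed by -0.07 and was not called. None of the 3 was called with the end contrast as a covariate, nor was SERPINB6 with array weights or SERPINB8 after renewed quantile normalisation. Leaving out single tumours removed the call on SERPINB6 in 8 of 21 fits, on SERPINB8 in 14 and on SERPINB13 in 15. The call on SERPINB6 was lost without tumour 1, 2, 10, 12, 16, 18, 20 or 21. For SERPINB8 it held without tumour 5, 6, 8, 9, 13, 14 or 15, and for SERPINB13 without tumour 4, 5, 6, 8, 11 or 15. SERPINB2, or plasminogen activator inhibitor 2, had levels from 2.90 through a median of 3.12 to 7.73 before and from 2.84 through 3.44 to 5.63 after treatment. Its change of 0.51 ± 0.24 did not pass (adjusted p = 0.244; 16 tumours higher). Single changes ran from -2.94 in tumour 15 to 2.74 in tumour 12. Without tumour 15 the change was 0.68, and without tumours 13 and 15 it was 0.74, and in both cases it was called. SERPING1, the C1 inhibitor, had a change of 0.11 ± 0.11 (adjusted p = 0.663).

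Of 21 Kunitz-type and other protease inhibitors, 1 rose and 5 fell, beside 2 higher and 5 lower at an unadjusted p under 0.05. Cystatin B, CSTB, which restrains lysosomal cysteine proteases, rose by 0.36 ± 0.07 (SE; limma adjusted p = 0.00294; 19 of 21 tumours). Both of its probe sets were called. RECK, a membrane protein that restrains matrix metalloproteinases, had levels from 4.94 through 7.66 to 9.13 before and from 5.06 through 7.19 to 8.24 after treatment. It fell by 0.43 on the log2 scale (SE 0.11, adjusted p = 0.0166), with 5 of 21 tumours higher. The matrix protein papilin, PAPLN, which carries Kunitz domains, had a change of -0.59 ± 0.14 (adjusted p = 0.0124; 4 tumours higher). Its other probe set changed by -0.06 and was not called. The remaining falls, named after their values were seen, were those of the membrane inhibitor SPINT2 (-0.26 ± 0.07), APLP2 (-0.24 ± 0.07), a relative of the amyloid precursor, and PEBP1 (-0.21 ± 0.06). The secreted inhibitor SLPI changed by 0.29 ± 0.25 and did not pass (adjusted p = 0.602). It too is named after its values were seen, and in tumour 15 it changed by -3.95.

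Of 20 measured genes around plasminogen, 1 rose and 0 fell in limma, beside 1 higher and 2 lower at an unadjusted p under 0.05. ENO1, the glycolytic enzyme enolase that also serves as a plasminogen receptor at the cell surface, rose by 0.33 ± 0.08 (adjusted p = 0.0221; 18 tumours), and 3 of its 4 probe sets were called. PLG, which encodes plasminogen and is made in the liver, had a level of 4.10 before and 4.03 after treatment, and its change did not pass (adjusted p = 0.679). LRP1, the receptor that clears protease and inhibitor complexes, changed by 0.13 ± 0.07 (adjusted p = 0.322). ANXA2 and S100A10, which together bind plasminogen at the cell surface, changed by 0.10 ± 0.05 and -0.10 ± 0.04, and neither passed (adjusted p = 0.341 and 0.153). Both are named after their values were seen.

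Of 27 measured clotting genes, 4 rose and 0 fell, beside 5 higher and 1 lower at an unadjusted p under 0.05. PROCR, the endothelial protein C receptor, which works with thrombomodulin in activating protein C, had levels from 5.65 through a median of 6.61 to 8.72 before and from 5.84 through 7.32 to 9.48 after treatment. It rose by 0.65 ± 0.12 (SE; limma adjusted p = 0.0031; 18 of 21 tumours), by 0.65 in both batches. It was called in the spiked batch alone (3.01% of all probe sets called, 19.7% at an unadjusted p under 0.05) but not in the unspiked batch alone (0% and 11.6%). Within the same pathway THBD, described above, lay lower after treatment in 14 tumours. LMAN1 rose by 0.55 ± 0.14 (adjusted p = 0.0221; 16 tumours), and so did its partner MCFD2 by 0.24 ± 0.07 (16 tumours). The 2 products form the cargo receptor that carries clotting factors V and VIII out of the endoplasmic reticulum. The remaining rise was that of TBXAS1, thromboxane synthase (0.47 ± 0.12; 15 tumours). MCFD2 and TBXAS1 are named after their values were seen. The thrombin receptor F2R had a change of -0.27 ± 0.09 that did not pass (adjusted p = 0.0758; 7 tumours higher), although it passed without tumour 3 or tumour 4 and in the spiked batch alone, and with array weights. F2RL1 (-0.01 ± 0.05), VWF (-0.09 ± 0.11) and the clot-crosslinking subunit F13A1 (-0.12 ± 0.22) did not pass either, with adjusted p of 0.949, 0.741 and 0.847. With 1 tumour left out these small values moved both ways. F13A1 was at -0.0083 without tumour 16 and -0.24 without tumour 15, and VWF at -0.02 without tumour 13 and -0.13 without tumour 20.

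Of 18 further serine proteases, limma called none, beside 0 higher and 3 lower at an unadjusted p under 0.05. Neutrophil elastase ELANE, the main target of SERPINA1, changed by -0.06 ± 0.06 (adjusted p = 0.658; 8 tumours higher). The 3 with an unadjusted p under 0.05 were the cell surface peptidases DPP4 (-0.61 ± 0.22, adjusted p = 0.105) and FAP (-0.33 ± 0.12, adjusted p = 0.0989), the latter a marker of activated fibroblasts, and PRSS35 (-0.46 ± 0.19, adjusted p = 0.174). They were named after their values were seen.

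**Figure D3:**
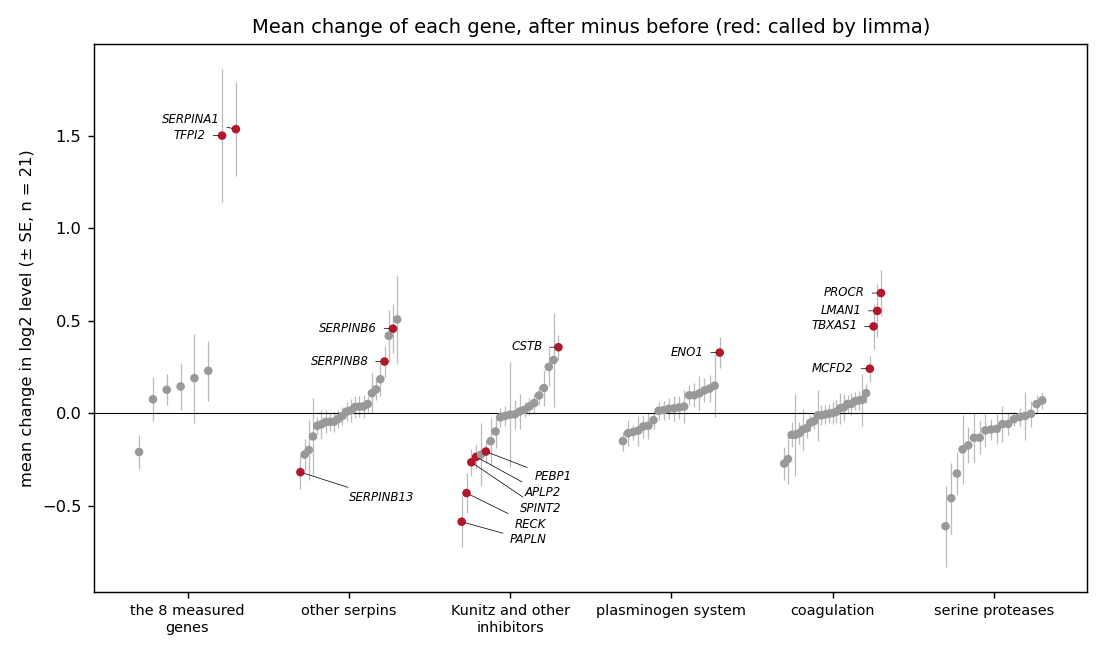
Mean change in log2 level (after minus before, with SE, n = 21 tumours) of the 8 measured genes and of 110 further genes in 5 lists, each dot a gene, ordered by change within its list. Red dots were called by limma over all probe sets and carry their names. SERPINA1 and TFPI2 lie near 1.5, and every other called gene lies between -0.59 and 0.65.

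Among the genes, SERPINA1 and TFPI2 were selected on their measured change, after minus before, which includes the levels before treatment. The genes and the relations were all chosen with earlier results of these data known. Relations between the levels before treatment were tested over the 21 tumours, and their p-values make no allowance for that choice. Of 14 relations planned, 11 could be computed without PLAUR, with p-values from 100000 permutations adjusted over the 11. None of the 7 relations among the genes themselves passed, the largest being F3 with THBD (r = 0.397, permutation p = 0.0697, adjusted p = 0.192; rho = 0.517, p = 0.0169, adjusted p = 0.0928). Without the 2 tumours farthest from the median of F3 the value of r was 0.431, and its values within the batches were 0.087 (spiked) and 0.573 (unspiked). For F3 and its inhibitor TFPI r was -0.147 (permutation p = 0.525, adjusted p = 0.578; rho = -0.136, p = 0.555), with r = -0.139 without the 2 farthest tumours. For PLAT and SERPINE2 r was 0.356 (permutation p = 0.115, adjusted p = 0.253; rho = 0.355, p = 0.116), and 0.156 without the 2 farthest tumours. For PLAT and SERPINE2, r was 0.546 and passed without tumour 17.

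SERPINA1 before treatment was high where neutrophil markers were high. Over 21 tumours r was 0.864 (permutation p = 0.00013, adjusted p = 0.00143) and rho was 0.596 (p = 0.00572, adjusted p = 0.0629). Without tumours 15 and 13, the 2 farthest from the median of SERPINA1, r was 0.439 (adjusted p = 0.223), so the relation rested on those 2 tumours. It was 0.156 in the spiked batch (n = 9) and 0.935 in the unspiked batch (n = 12), which holds both of them. With macrophage markers r was 0.548 (permutation p = 0.00869, adjusted p = 0.0478) and rho was 0.492 (p = 0.0253, adjusted p = 0.0928). Here r was 0.409 without tumours 15 and 13 (adjusted p = 0.223), and 0.568 and 0.583 in the spiked and unspiked batches. With single tumours left out the macrophage relation failed to pass 14 times of 21, and r was lowest, 0.458, without tumour 15. It passed without tumour 1, 4, 5, 8, 17, 20 or 21.

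TFPI went with endothelial markers less firmly. Over all 21 tumours r was 0.499 (permutation p = 0.0203, adjusted p = 0.0744) and rho was 0.443 (p = 0.0463, adjusted p = 0.127). Its values within the batches were 0.751 (spiked) and 0.524 (unspiked). Tumour 4, with the highest TFPI level (6.90) and low endothelial markers, lay apart, and without it r was 0.748 and passed. Without tumours 4 and 13, the 2 farthest from the median of TFPI, r was 0.644 (adjusted p = 0.0329), whereas without tumour 13 alone it was 0.341 and without tumours 13 and 15 it was 0.202. For THBD and endothelial markers r was -0.205 (permutation p = 0.35, adjusted p = 0.481; rho = 0.081, p = 0.727), and 0.081 without tumours 2 and 17. Its values within the batches had opposite signs, 0.538 (spiked) and -0.287 (unspiked).

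**Figure D4:**
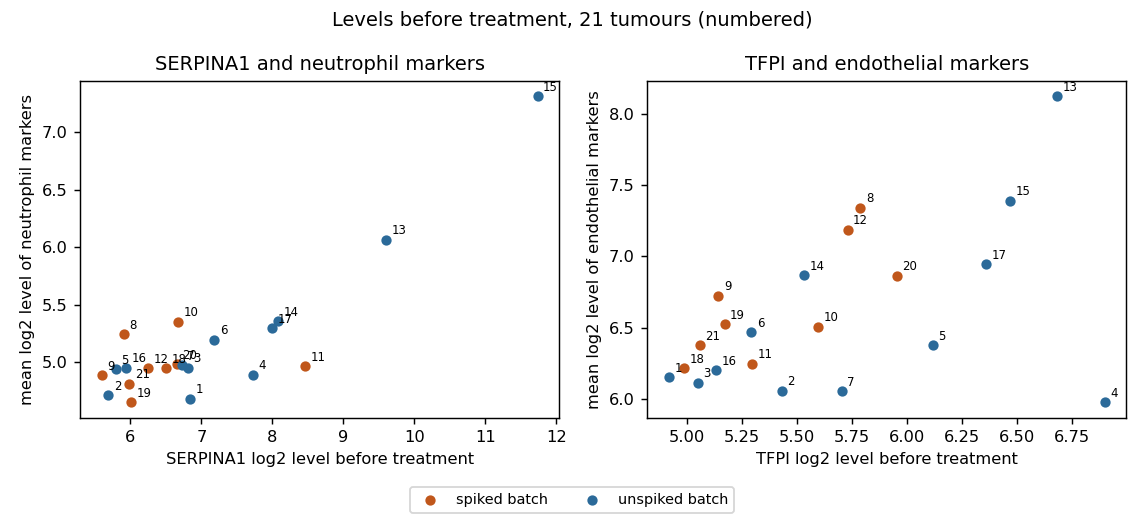
Levels before treatment in 21 numbered tumours. The left panel sets the log2 level of SERPINA1 against the mean log2 level of 11 neutrophil markers, with tumours 13 and 15 far from the rest, and the right panel sets TFPI against 13 endothelial markers, with tumour 4 apart at the lower right. Colours mark the spiked and unspiked batches.

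Genes with the most similar levels before treatment were sought among 9176 genes above the median probe set level, by Pearson's r over the 21 tumours and as a description only. For SERPINA1 they were S100P (r = 0.889), CARHSP1 (0.888) and PLAU (0.870), itself one of the 8 genes. For PLAU they were TREM1 (0.924), the keratin gene KRT1 (0.914) and ALAS2 (0.905). SERPINA1 and PLAU were both highest in tumour 15, the tumour in which the epithelial and neutrophil markers were highest. For TFPI2 they were LIMK2 (0.826), FCER1G (0.795) and TPD52 (0.785), and for TFPI they were PDLIM1 (0.846), DBI (0.845) and COX4I2 (0.844). F3 had lower values, with CCDC179 (0.729), FAIM2 (0.708) and PRNP (0.686). SERPINE2 was most like ANXA1 (0.764), MUC2 (0.662) and ROR1 (0.634), and PLAT most like PLXNA2 (0.741), OSMR (0.731) and BGN (0.707). For THBD, which lay at 8.34 in tumour 2 against 6.13 in the next highest tumour, the genes were VAPB (0.860), PCED1A (0.823) and DLGAP4 (0.766).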

How the data were processed

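The authors' deposited values are log2 levels of 43035 probe sets, from 2.13 to 14.65. The submitters' processing notes name RMA and Affymetrix Expression Console, with no versions. After removal of 111 control probe sets, 42924 were tested, of which 29254 carry 1 gene symbol in the platform annotation. A tumour code in each title links both arrays of a tumour. Each array resembled its partner most in all 21 pairs once group means were removed, with a lowest correlation of 0.438. Changes were fitted by limma (version 3.58.1, R 4.3.3) with a term for the tumour, and Benjamini-Hochberg adjustment ran over all 42924 probe sets. The fit was tested on simulated data. Batches were split at the largest gap in the level of the poly-A controls. Relations used 100000 permutations, two-sided. Alternatives changed the block, shrinkage, array weights, normalisation, centring, end contrast, filter, batch, probe set and tumours. Leaving out tumours 13 and 15 was added after seeing the data.

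The members, lists and relations were chosen with earlier results of these data known. The genes named are the members, the 2 called genes with the largest rise and the 2 with the largest fall of each list, a fixed set of known partners where measured, and the 3 genes most like each member. Others are marked as named after their values were seen. Python 3.11.15 was used for summaries.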

Additional observations from a re-analysis of the deposited data

How the results depend on the processing

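Without the tumour as a block (no replicate block) 0 of the 8 genes and 0 further genes of the lists were called in either direction, and 27 probe sets were called higher and 3 lower. Renewed quantile normalisation left 3 listed genes lower. With the end contrast as a covariate 5 were higher and 3 lower. Without the 5 tumours of shifted end contrast 1 of the 8 genes was called higher (SERPINA1), and TFPI2 no longer was. In that fit 2 listed genes were higher and 0 lower, and 269 probe sets were higher and 417 lower. In the spiked batch alone 1 of the 8 genes (SERPINA1) and 3 listed genes were higher and 4 listed genes lower, with 510 probe sets higher and 783 lower. In the unspiked batch alone all these counts were 0. Without tumours 13 and 15, chosen after seeing the data, 2203 probe sets were lower. Leaving out 1 tumour gave 5 to 10 listed genes higher and 2 to 7 lower, and 882 to 1587 probe sets higher and 920 to 1730 lower, and 2 of the 8 genes were higher each time. Smaller sets have fewer tumours, and the cause was otherwise not tested. Nothing is read from the counts of the 8 genes, since SERPINA1 and TFPI2 were listed for their change.

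SERPINA1 with macrophage markers no longer passed after median centring (r = 0.535), without the 2 farthest tumours or without tumours 13 and 15 (0.409 in both), or in the spiked (0.568) or unspiked batch (0.583), and ran from 0.458 to 0.663 with 1 tumour left out. SERPINA1 with neutrophil markers no longer passed without the 2 farthest tumours or without tumours 13 and 15 (0.439 in both) or in the spiked batch (0.156). TFPI with endothelial markers passed after quantile normalisation (0.549) and without the 2 farthest tumours (0.644), and ran from 0.341 to 0.748 with 1 tumour left out. With the second probe set of TFPI, which lay near the bottom of the measured range, r was 0.257 (permutation adjusted p = 0.403). F3 with THBD passed with the second probe set of F3 (0.488). PLAT with SERPINE2 ran from 0.250 to 0.546. No called value changed sign under the alternatives run, but values that were not called did. In the spiked batch r was 0.795 for TFPI with THBD (-0.255 over all tumours), 0.538 for THBD with endothelial markers and 0.197 for F3 with TFPI2 (-0.039), and SERPINE2 and PLG had changes of -0.08 and 0.10. In the unspiked batch r was 0.068 for F3 with TFPI. THBD with endothelial markers turned without the 2 farthest tumours, F3 with TFPI2 without tumour 2, 10, 14 or 18, F13A1 without the tumours of shifted end contrast, and F2RL1, at -0.01, in several fits. The 3 planned relations of PLAUR were not run, and PLAU and PLAT had no second probe set.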
